A study of Mus musculus with 16 samples.

Results

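The genes of antigen presentation by the major histocompatibility complex (MHC) were followed in whole mouse liver. They were taken by name, as every protein-coding gene whose symbol begins with H2- together with B2m, Tap1, Tap2, Tapbp, Nlrc5, Psmb8, Psmb9, Psmb10, Cd74 and Ciita, which gave 44 of the 25719 genes of the expression table. Of these, 32 serve class I presentation (24 heavy chains and 8 partner genes), 11 serve class II presentation, and H2-Ke6, a hydroxysteroid dehydrogenase gene that lies in the complex and shares only its prefix, serves neither. The study asked how a steatosis-steatohepatitis diet (SSD), rich in animal fat, fructose and cholesterol, affects the liver, and what the loss of the activating immune receptor NKG2D does to that response. RNA of 16 livers was sequenced, with 1 library per mouse and no pooling stated. The 4 groups were 4 WT mice (strain C57BL6J) on normal chow diet (NCD), 5 WT mice on SSD, 4 Klrk1-/- mice on NCD and 3 Klrk1-/- mice on SSD. Klrk1 encodes NKG2D, and the Klrk1-/- mice lack it in every cell that would carry it, not in 1 cell type. By the study's methods the mice were males of 8 to 12 weeks and were fed for 3 weeks before the livers were taken, and whether the genotypes were littermates is not given in the sources used here.

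Class I molecules consist of a heavy chain and β2-microglobulin, and nearly every nucleated cell carries them. Their peptides are cut in the cytosol by proteasomes, in which the subunits Psmb8, Psmb9 and Psmb10 can replace the constitutive ones, are pumped into the endoplasmic reticulum by the transporter Tap1-Tap2, and are loaded there with the help of tapasin (Tapbp). Class II molecules are α and β chain pairs found mostly on dendritic cells, macrophages and B cells. The invariant chain Cd74 guards their groove on the way to the endosome, H2-DM exchanges its remnant for a peptide, and H2-O restrains H2-DM. Nlrc5 and Ciita are related transactivators, the former of class I and the latter of class II genes. Most liver RNA comes from hepatocytes, which carry class I but are not professional class II cells. In RNA of a whole organ, more cells of a type and more RNA per cell cannot be told apart.

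Each mouse gave 19892025 to 28936707 reads on genes. The targeted gene Klrk1 had 20.1 to 28.7 normalized counts in WT mice on NCD and 32.9 to 71.1 on SSD, against 1.23 to 8.71 and 0.966 to 4.29 in Klrk1-/- mice, so all libraries matched their genotype label. Hepatocyte markers (Alb, Apoa1, Ttr, Serpina1a and Cyp2e1) were high in every library, with a mean log2(normalized count + 1) of 17.08 to 17.49 in WT mice on SSD, the lowest of the groups. WT mouse 1 on SSD stood apart from the rest of its group. Its summed leukocyte markers (Ptprc, Coro1a and Laptm5) came to 2213 normalized counts, while the other 4 mice had 990.2, 1132, 1235 and 827. The main counts of called members and cell markers that hold this mouse are given without it as well. Most counts under other settings and over all genes hold it. The deposited scaling sets the median log2 fold change between diets near 0 (-0.00 in WT mice). When every library was scaled to the same total instead, that median was 0.34 in WT mice and 0.25 in Klrk1-/- mice, so under that scaling a change is read against these values. The split of all called genes moved with it, from 1564 higher and 958 lower to 3491 and 406 in WT mice, and from 844 and 852 to 2124 and 479 in Klrk1-/- mice. For the genotypes on SSD it went from 93 and 186 to 52 and 274, and for the interaction from 38 and 73 to 21 and 86. Without WT mouse 1 on SSD, the deposited scaling gave 1358 and 945 for the diets in WT mice. It gave 119 and 328 for the genotypes on SSD and 38 and 75 for the interaction.

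The stretches of DNA before 6 of the genes are shown for the letters through which class I and class II genes are known to be controlled. They are the 200 bases upstream of an annotated start of each of 3 class I heavy chains and 3 class II genes, chosen because the results below turn on H2-K1, H2-D1, H2-Q10, H2-Aa, H2-Eb1 and H2-DMb1. The sequences are RefSeq's, on build GRCm38.p6, and are written 5′ to 3′ along the strand of the gene. Capitals mark matches on either strand to CCAAT (also seen as ATTGG), the letters of the Y box bound by NF-Y, to GAANNGAAA (seen here on the other strand), an interferon-response type of element, and to a strict form of the X box read by the RFX complex (the longest run of capitals, in H2-DMb1). No match overlaps another.
H2-K1 (chr17:34000348-34000547, minus strand): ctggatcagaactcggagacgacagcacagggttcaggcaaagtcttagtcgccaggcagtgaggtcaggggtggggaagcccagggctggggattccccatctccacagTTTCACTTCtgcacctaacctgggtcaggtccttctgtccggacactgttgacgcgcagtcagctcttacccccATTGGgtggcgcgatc
H2-D1 (chr17:35262894-35263093, plus strand): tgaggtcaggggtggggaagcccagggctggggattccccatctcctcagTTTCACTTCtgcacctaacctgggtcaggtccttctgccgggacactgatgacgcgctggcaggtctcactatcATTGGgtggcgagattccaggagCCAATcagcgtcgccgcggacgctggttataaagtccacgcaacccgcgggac
H2-Q10 (chr17:35469889-35470088, plus strand): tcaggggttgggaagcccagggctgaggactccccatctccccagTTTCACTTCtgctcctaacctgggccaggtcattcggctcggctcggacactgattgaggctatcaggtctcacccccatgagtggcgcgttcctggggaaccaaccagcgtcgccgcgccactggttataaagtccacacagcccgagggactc
H2-Aa (chr17:34287824-34288023, minus strand): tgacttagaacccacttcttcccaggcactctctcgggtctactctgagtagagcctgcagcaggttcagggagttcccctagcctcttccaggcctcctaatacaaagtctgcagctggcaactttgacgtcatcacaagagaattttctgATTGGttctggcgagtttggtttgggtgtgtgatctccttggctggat
H2-Eb1 (chr17:34305667-34305866, plus strand): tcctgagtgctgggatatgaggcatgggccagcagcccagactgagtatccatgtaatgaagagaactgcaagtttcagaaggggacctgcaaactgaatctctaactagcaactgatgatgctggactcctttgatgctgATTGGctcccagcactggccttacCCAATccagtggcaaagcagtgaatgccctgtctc
H2-DMb1 (chr17:34152991-34153190, plus strand): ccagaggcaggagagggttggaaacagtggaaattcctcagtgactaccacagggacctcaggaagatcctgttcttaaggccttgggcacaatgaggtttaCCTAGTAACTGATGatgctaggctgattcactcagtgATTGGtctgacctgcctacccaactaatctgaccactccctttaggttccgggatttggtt
The interferon-response letters begin 90 bases upstream in H2-K1, 150 in H2-D1 and 155 in H2-Q10, and are in none of the 3 class II windows. From a second annotated start of H2-K1 they begin 104 bases upstream, with 2 CCAAT matches in its 250 bases. H2-Q10 is the only one of the 6 without CCAAT letters, and H2-DMb1 the only one with the strict X box form, 98 bases upstream. RefSeq promoters were at hand for 37 of the 44 genes. In the 250 bases upstream, 8 of 8 class II genes and 23 of 28 class I genes held CCAAT, as did 33.8% of all 32851 mouse promoters of that length. GAANNGAAA stood before 8 of 28 class I genes (H2-D1, H2-K1, H2-M2, H2-M3, H2-Q10, H2-Q4, H2-Q6 and H2-Q7) and before 0 of 8 class II genes, with 6.31% of all promoters holding it. The strict X box form was found before H2-DMb1 alone among the 37, and in 0.0487% of all promoters, so its absence elsewhere says only that this form is not in the window. The heavy chain genes are near copies of each other, so their shared letters are not separate observations, and a match describes the letters, not the binding of a factor.

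The classes differed widely in level. Of the 44 genes, 31 reached a mean of 10 normalized counts over the 16 mice and could be tested (20 class I, 10 class II and H2-Ke6). No read fell on 10 of them in any mouse (H2-T3, H2-M1, H2-M9, H2-M11 and H2-M10.1 to H2-M10.6), class I-like genes whose roles lie outside the liver where known, and H2-M5 had 3 reads or fewer in each mouse. Taken per length, as mean normalized counts per kilobase of the gene's deposited length over all mice, B2m led with 59037, followed by H2-K1 with 30024, H2-Q10 with 19290.5 and H2-D1 with 10010.2. Cd74, the most abundant class II gene on this scale, stood at 2097, H2-Ab1 at 1005, H2-Eb1 at 779.8 and H2-Aa at 757, and the controllers Nlrc5 and Ciita at 218 and 12.8. The class I genes together took 0.661 to 0.743% of all reads on genes in WT mice on NCD and 0.619 to 0.757% on SSD, which overlap, and 0.655 to 0.707% in Klrk1-/- mice on NCD and 0.573 to 0.603% on SSD, which do not. The class II genes took 0.0107 to 0.0179% in WT mice on NCD and 0.0180 to 0.0771% on SSD, and 0.0117 to 0.0161% in Klrk1-/- mice on NCD and 0.0195 to 0.0203% on SSD.

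Most class II genes tested were called higher in SSD-fed WT mice. Of the 10 tested, 8 were called higher and 0 lower in the comparison of diets, where a call is an adjusted p under 0.05 in limma's test over all genes and a fold change over 1.5. Over all 13091 genes tested, 11.9% were called higher. The median log2 fold change of the 10 genes was 0.96, against -0.00 over all genes, and stayed between 0.75 and 1.30 over the 19 alternative settings that gave one. The largest change was a 2.26-fold rise of H2-Aa, and the 2 genes not called were H2-DMb2, an alternative β chain of H2-DM (log2 fold change 0.53, adjusted p = 0.174) and H2-Oa (0.47, adjusted p = 0.291). None of the 10 class II genes tested separated all 5 WT mice on SSD from all 4 on NCD, whereas 29% of all genes tested did. WT mouse 1 on SSD was the highest of its group in 8 of the 10 genes and mouse 5 the lowest in 8. Without mouse 1 the median was 0.75 and 7 of the 8 genes were still called, where 10.4% of all genes were called higher. Ciita was not called there (adjusted p = 0.0684). Of the 8, 2 were still called without NCD mouse 1 or NCD mouse 2, 3 without SSD mouse 3 or SSD mouse 4, 5 under quantile normalization, and H2-Aa alone with the replicate number as a block, a model that also leaves out SSD mouse 4. With a mouse left out the median was 0.75 to 1.19.

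H2-Aa (ENSMUSG00000036594, chromosome 17, 34501718 to 34506797 on GRCm39) encodes the α chain of the I-A molecule, the main class II molecule of this strain. WT mice held 563, 667, 920.3 and 775 normalized counts on NCD and 3379.8, 1385, 1568, 1949.9 and 800.1 on SSD. Mouse 5 on SSD lay within the NCD range and the other 4 above it. The log2 fold change was 1.18 (standard error, SE, 0.31; adjusted p = 0.0133), and 0.91 without mouse 1 (adjusted p = 0.00921). Klrk1-/- mice held 749, 799, 657 and 685 on NCD and 923, 979.7 and 891 on SSD. Here the diets did not overlap, with a log2 fold change of 0.37 (SE 0.09, adjusted p = 0.0108) that was under the fold limit at 1.29-fold, but over it with equal totals (log2 0.63, adjusted p = 0.000693). H2-Ab1 (ENSMUSG00000073421, chromosome 17, 34476663 to 34488393), the β chain of I-A, gave 439, 521, 692 and 676 normalized counts in WT mice on NCD and 2262, 1013, 1202, 1484 and 495 on SSD. Its pattern over mice was that of H2-Aa, with 1 SSD-fed mouse inside the NCD range. It rose 2.01-fold in WT mice (log2 1.01, SE 0.33, adjusted p = 0.0351). Without NKG2D it went from 580.2, 603, 501 and 487 on NCD to 732, 715 and 669 on SSD, which did not overlap and came to 1.30-fold (adjusted p = 0.0137). H2-Eb1 (ENSMUSG00000060586, chromosome 17, 34524841 to 34535648), the β chain of the second class II molecule, I-E, had 487, 484, 712 and 661 in WT mice on NCD and 2499.7, 1054, 1243, 1602 and 584 on SSD. The single overlap was again mouse 5. The rise was 2.17-fold (log2 1.11, SE 0.32, adjusted p = 0.0189). Klrk1-/- mice had 574, 599, 586 and 499 on NCD and 697, 773 and 669 on SSD, a difference of 1.26-fold (adjusted p = 0.0206) without overlap. With equal totals both H2-Ab1 and H2-Eb1 were called in Klrk1-/- mice (adjusted p = 0.00102 and 0.000879). H2-Eb2, a further β chain gene, was near the floor, with 0 to 1.21 normalized counts in WT mice on NCD and 1.78 to 9.30 on SSD, and was not tested by limma, while DESeq2, with its own filter, called it higher. Every SSD-fed WT mouse was above every NCD-fed one.

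Cd74 (ENSMUSG00000024610), the invariant chain, gave 1300.0, 1667, 2020.4 and 1812 normalized counts in WT mice on NCD and 5808, 2528, 3472, 3972 and 1616 on SSD. Mouse 5 on SSD was below 3 of the 4 NCD-fed mice. Cd74 rose 1.90-fold (log2 0.92, SE 0.29, adjusted p = 0.028). In the Klrk1-/- livers the values were 1499, 1924, 1268 and 1387 on NCD and 1740.3, 1790.0 and 1897 on SSD, which overlapped (log2 fold change 0.27, adjusted p = 0.122). The peptide exchange genes H2-DMa and H2-DMb1 rose in WT mice. H2-DMa (ENSMUSG00000037649, chromosome 17, 34338515 to 34358075) had 66.3, 91.6, 119 and 117 in WT mice on NCD and 345, 161, 185, 236 and 94.7 on SSD, a 1.94-fold rise (log2 0.96, SE 0.31, adjusted p = 0.0314). It was the single class II gene called in Klrk1-/- mice, where the call was kept in 9 of 17 alternatives. Its values there were 97.7, 89.6, 99.5 and 76.3 on NCD and 139, 133 and 136 on SSD, with no overlap and a fold change only just past the limit (log2 0.59, SE 0.14, adjusted p = 0.00806). H2-DMb1 (ENSMUSG00000079547, chromosome 17, 34372046 to 34379204) had 67.5, 63.4, 75.6 and 97.1 in WT mice on NCD and 282, 135, 176, 147 and 67.8 on SSD. Mouse 5 alone fell inside the NCD range. The rise was 1.94-fold (adjusted p = 0.0346), while Klrk1-/- mice had 68.9, 83.4, 42.3 and 56.6 on NCD and 77.3, 88.3 and 67.7 on SSD (log2 0.34, adjusted p = 0.271). H2-DMb1 and H2-DMb2 share sequence, with 11.3% of the 100-base windows of the former found in the latter, so reads between them can be split or lost. The 3094 bases by which H2-DMa overlaps Brd2 on the opposite strand are a further limit, since the sources used here do not say whether reads were counted by strand.

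H2-Ob (ENSMUSG00000041538, chromosome 17, 34457877 to 34473388), the β chain of the H2-DM inhibitor H2-O, is best known from B cells. WT mice held 24.1, 18.1, 26.1 and 33.1 normalized counts on NCD and 55.8, 39.7, 47.6, 63.1 and 31.8 on SSD, with mouse 5 the only one to overlap. H2-Ob rose 1.83-fold (log2 0.87, SE 0.25, adjusted p = 0.0186). Among Klrk1-/- mice its values were 28.7, 26.1, 48.5 and 48.0 on NCD and 23.2, 46.6 and 32.6 on SSD (log2 -0.15, adjusted p = 0.753). Ciita (ENSMUSG00000022504, chromosome 16, 10297923 to 10346282), the transactivator on which class II transcription depends, had 12.1, 40.3, 43.0 and 34.2 in WT mice on NCD and 124, 42.2, 69.5, 55.1 and 53.9 on SSD. Mouse 2 on SSD lay within the NCD range and mouse 1 far above every other. The rise was 2.15-fold (log2 1.11, SE 0.38, adjusted p = 0.0414). Klrk1-/- mice had 19.5, 36.1, 38.6 and 28.3 on NCD and 40.6, 35.3 and 41.1 on SSD (log2 0.38, adjusted p = 0.281). The gene overlaps Dexi on the opposite strand by 25888 bases. H2-Oa, the α chain of H2-O, was the lowest class II gene tested, with 7.24 to 10.4 in WT mice on NCD and 8.45 to 18.6 on SSD, and H2-DMb2 had 12.1 to 23.2 and 16.3 to 33.8.

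**Figure D1:**
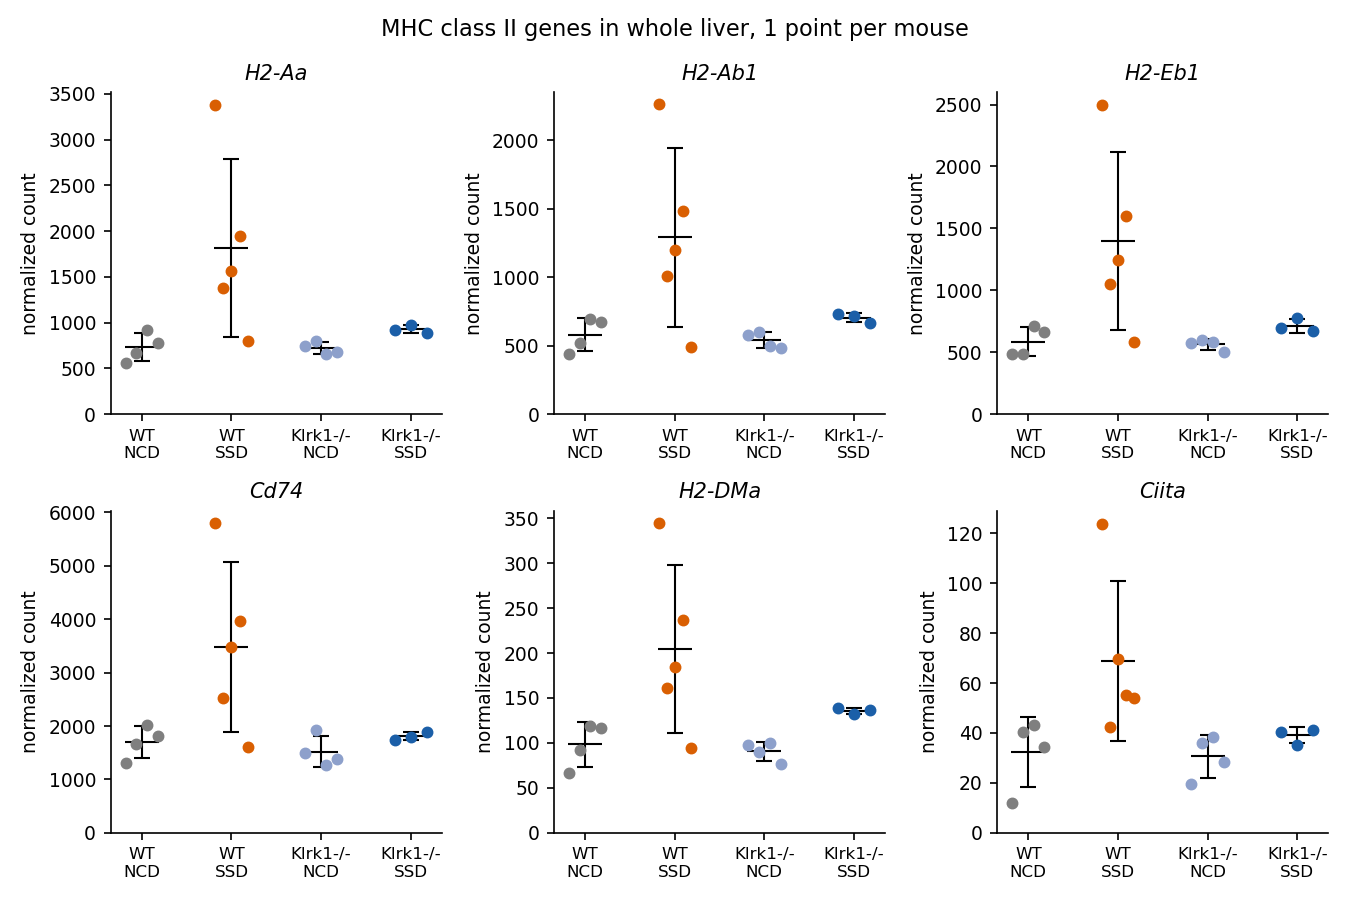
Normalized counts of 6 class II genes in each mouse (points), with the mean and SD of each group (bar and whiskers) and a linear axis from 0. In WT mice on SSD, 4 of 5 points of H2-Aa, H2-Ab1 and H2-Eb1 lie above every NCD-fed mouse and 1 among them, and mouse 1 is highest in all 6 genes.

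In Klrk1-/- mice, 1 of the 9 class II genes tested was called higher on SSD (H2-DMa) and 0 lower, where 13.1% of the 12904 genes tested were called in either direction and 6.54% higher. The count depends on the scaling. With libraries scaled to the same total, 4 of the 9 were called higher (H2-DMa, and H2-Aa, H2-Ab1 and H2-Eb1 at log2 0.63, 0.64 and 0.59), with 16.4% of all genes, beside 9 of 10 in WT mice, with 26.6% of all genes. Without the fold limit, 4 class II genes passed at an adjusted p under 0.05 (H2-Aa, H2-Ab1, H2-Eb1 and H2-DMa), and 13.4% of all genes did so in that direction. These passes did not hold under every alternative, where the largest adjusted p of the 4 was 0.401, 0.416, 0.457 and 0.168 in turn. The median log2 fold change of the 9 genes was 0.37, against -0.00 over all genes. In the exact test 3 mice against 4 allow no p under 0.0571, which these 4 genes reached, since their groups did not overlap. Over all genes tested, 17.9% had non-overlapping groups with SSD higher.

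Markers of leukocytes moved with the class II genes in WT mice, though those of B cells were not called higher and most tested neutrophil markers lay below 0. Of the 3 leukocyte markers, 2 were called higher with or without mouse 1, against 11.9% and 10.4% of all genes. In Klrk1-/- mice 0 of 3 were called higher, against 6.54%. The summed leukocyte markers ranged over 525 to 729.95 normalized counts in WT mice on NCD, 827 to 2213 in WT mice on SSD, 555 to 626 in Klrk1-/- mice on NCD and 655 to 745 in Klrk1-/- mice on SSD. Among markers of cells that carry class II, 4 of 6 Kupffer cell genes, 5 of 9 monocyte and recruited macrophage genes and 4 of 7 tested dendritic cell genes were called higher in WT mice on SSD, where 11.9% of all genes were, beside 0 of 6 B cell genes, of which 0 had an unadjusted p under 0.05 in limma's test. Without WT mouse 1 on SSD they were 2 of 6, 4 of 9, 3 of 7 and 0 of 6, against 10.4% of all genes. In the Klrk1-/- livers these counts were 1 of 6, 3 of 9, 1 of 6 and 0 of 6, against 6.54% of all genes. Summed dendritic cell markers were 183 to 298 on NCD and 362 to 839 on SSD in WT mice, and 272 to 400.4 and 351 to 399 in Klrk1-/- mice. Summed Kupffer cell markers were 3490.3 to 3833 on NCD and 5096 to 11058 on SSD in WT mice, and 3039 to 3757 and 3789 to 4900.2 in Klrk1-/- mice. Summed monocyte and recruited macrophage markers were 2645 to 4243 on NCD and 3269 to 11617 on SSD in WT mice, and 2281 to 2704 and 3139.6 to 3329 in Klrk1-/- mice. Summed B cell markers were 68.7 to 144 on NCD and 86.2 to 183 on SSD in WT mice, and 98.8 to 185 and 129 to 150.2 in Klrk1-/- mice. Other cell types also had markers called higher in WT mice, with 2 of 4 stellate cell, 2 of 4 sinusoidal endothelial and 1 of 4 tested T and NK cell genes. Without mouse 1 these were 1, 3 and 0. The shares of all genes were again 11.9% and 10.4%. Of the 3 neutrophil genes tested in WT mice, 1 had a log2 fold change above 0 and 0 were called, with a median of -0.57. Without mouse 1 the median was -0.89 and S100a9 was called lower (-0.89, adjusted p = 0.0473), where 17.7% of all genes were called. In Klrk1-/- mice the neutrophil median was 0.17, with 0 called. Of all markers, the neutrophil gene Ly6g alone was at 0 in each of the 16 mice. Set against the pan-leukocyte gene Ptprc in the same library, H2-Aa stood at 2.99 to 3.55 in WT mice on NCD and 2.99 to 6.0 in the 5 WT mice on SSD. The ratio of mouse 5 was just below the lowest NCD-fed mouse and that of the other 4 above the highest. Among Klrk1-/- mice it was 3.57 to 4.38 on NCD and 4.73 to 5.15 on SSD, with no overlap. Cd74 per Ptprc was 6.91 to 8.45 and 6.03 to 13.17 in WT mice and 7.08 to 8.76 and 8.92 to 10.34 in Klrk1-/- mice. What part these cell types have in the class II values was not tested.

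**Figure D2:**
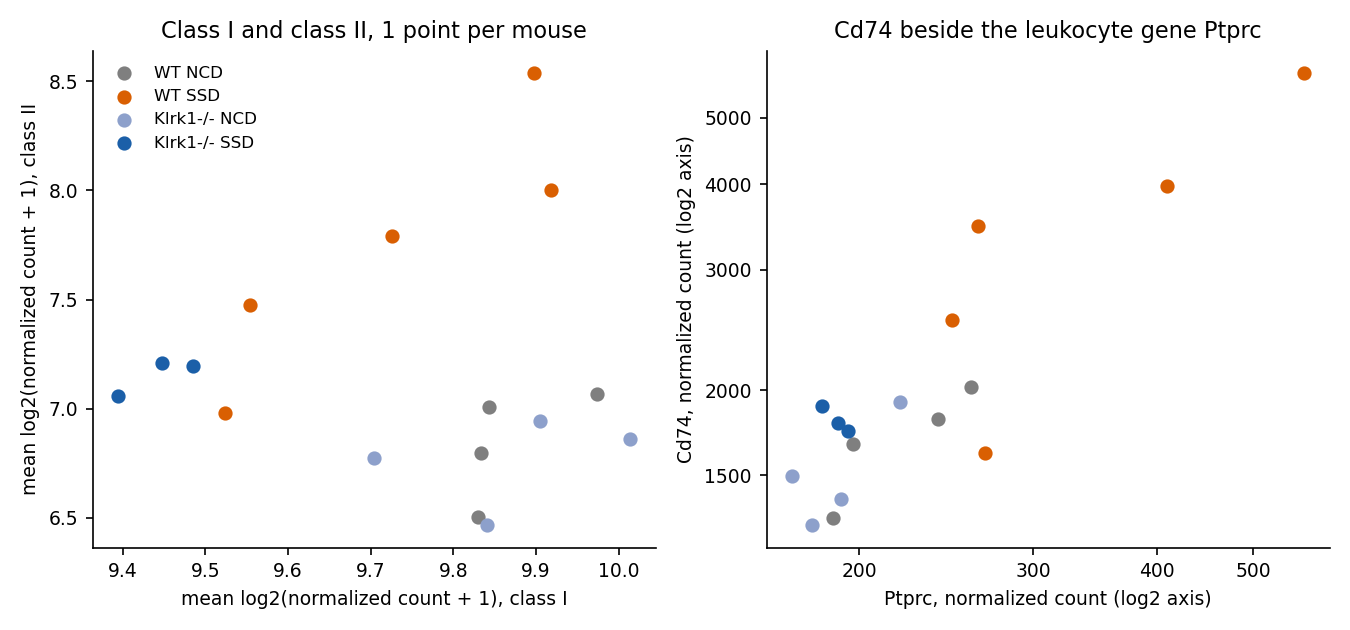
Left, the mean log2(normalized count + 1) of the 20 class I and 10 class II genes tested, 1 point per mouse. SSD-fed mice lie higher on the class II axis or lower on the class I axis than NCD-fed mice. Right, Cd74 against Ptprc in normalized counts on log2 axes, with WT mouse 1 on SSD at the top right and WT mouse 5 on SSD beside the NCD-fed WT mice.

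Class I genes did not move as 1 group. In WT mice, 2 of the 20 tested rose on SSD (H2-M3 and H2-T24) and 3 fell (H2-Q10, H2-Q7 and H2-Q6), all of them heavy chain genes, where 19.3% of all genes were called and 7.32% were called lower. Without mouse 1 on SSD, 2 rose and 5 fell, H2-Q1 and Psmb9 being added, where 17.7% of all genes were called. The class I median was -0.13 on the log2 scale, and 0.21 when libraries were scaled to the same total, which is below the 0.34 of all genes there. Under quantile normalization it was 0.06, above the -0.01 of all genes. The side of all genes on which the group lay thus did not hold under every scaling. Without NKG2D 0 rose and 4 fell (H2-Q10, H2-Q7, H2-Q1 and Psmb9), beside 6.60% of all genes called lower. The median was -0.32, and -0.07 when scaled to the same total (all genes 0.25). Without the fold limit, 9 class I genes were lower there at an adjusted p under 0.05, against 16% of all genes. Every SSD-fed Klrk1-/- mouse lay below every NCD-fed one for 12 of the 20, and for 19.7% of all genes.

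H2-Q10 (ENSMUSG00000067235, chromosome 17, 35780986 to 35785460) encodes a class I chain that the liver secretes into the blood, and had the largest class I fall in WT mice. WT mice held 66593, 64180.5, 66600.1 and 63783 normalized counts on NCD and 26993, 39134, 36777, 32362 and 36451 on SSD. The groups were far apart, the highest SSD-fed mouse being well below the lowest on NCD. H2-Q10 fell 1.92-fold (log2 -0.94, SE 0.13, adjusted p = 0.000264; exact permutation p = 0.0159, the smallest that 4 against 5 mice allow). Klrk1-/- mice held 60704, 66955, 68479.7 and 61242 on NCD and 34787, 38835 and 37682 on SSD, again with no overlap and a 1.73-fold fall (log2 -0.79, SE 0.10, adjusted p = 0.000144). The Klrk1-/- fall passed the adjusted p but not the fold limit with equal totals (log2 -0.54) and under quantile normalization (-0.57). Its log2 fold change stayed below 0 under every setting tried in both comparisons of diets, and was nearest to 0, at -0.39, in WT mice with quantile normalization. Set against Alb, another secreted product of hepatocytes, whose own log2 fold change was -0.46 in WT mice (adjusted p = 0.277), H2-Q10 stood at 0.0357 to 0.0403 per Alb count on NCD and 0.0253 to 0.0319 on SSD in WT mice. The corresponding ranges in Klrk1-/- mice were 0.0315 to 0.0400 and 0.0232 to 0.0256, so the 2 diets separated in both genotypes. All 5 hepatocyte markers had a log2 fold change below 0 in WT mice, of which Serpina1a was called (-0.77, adjusted p = 0.000951) and Apoa1 passed the adjusted p alone (-0.54, adjusted p = 0.0377). Their summed level was 2205890 to 2525600 normalized counts on NCD and 1455660 to 1876840 on SSD in WT mice, without overlap, and 2155410 to 2878680 and 2001400 to 2156030 in Klrk1-/- mice. Their part in the fall of H2-Q10 was not tested.

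H2-K1 (ENSMUSG00000061232, chromosome 17, 34214991 to 34219321) and H2-D1 (ENSMUSG00000073411, chromosome 17, 35481706 to 35486475) are the classical heavy chains that show peptides to CD8 T cells. For H2-K1, WT mice gave 35118, 33898, 38265 and 36356 normalized counts on NCD and 22193, 25153, 26623, 31833 and 25371 on SSD. Every SSD-fed mouse was below every NCD-fed one. The log2 fold change was -0.46 (SE 0.12, adjusted p = 0.0114), a 1.38-fold difference under the fold limit. It was -0.12 when scaled to the same total and 0.04 under quantile normalization. Klrk1-/- mice gave 32449, 33497, 38393 and 34409 on NCD and 22776, 24759 and 23126 on SSD, which did not overlap either (log2 -0.56, SE 0.09, adjusted p = 0.00112). At 1.47-fold this too was under the limit, which it passed without NCD mouse 1 or SSD mouse 2, and with equal totals it was -0.30 (adjusted p = 0.0137). H2-D1 gave 15114, 15062, 16104 and 15954 in WT mice on NCD and 18769.9, 14589.8, 15448, 19961 and 14864 on SSD, with the NCD-fed mice inside the range of the SSD-fed (log2 0.09, adjusted p = 0.559). In Klrk1-/- mice it gave 15422, 14099, 15702 and 13874 and 13085, 13243 and 12314, without overlap (log2 -0.20, adjusted p = 0.0981), and 0.06 with equal totals. Within a library, where scaling plays no part, H2-K1 stood at 2.25 to 2.38 times H2-D1 in WT mice on NCD and 1.18 to 1.72 times on SSD. The ratio was 2.10 to 2.48 in Klrk1-/- mice on NCD and 1.74 to 1.88 on SSD. No SSD-fed mouse reached the lowest NCD-fed mouse of its genotype. The lowest ratio was that of WT mouse 1 on SSD, and the other 4 of its group lay at 1.59 to 1.72. These copies share little of their transcripts at the read length, 2.03% of the 100-base windows of H2-K1 and 2.53% of those of H2-D1 being found in another gene, against 9.5% for H2-Q10.

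The Qa-2 genes H2-Q7 and H2-Q6 fell beside H2-Q10 in WT mice, and H2-Q7 in Klrk1-/- mice as well. H2-Q7 (ENSMUSG00000060550, chromosome 17, 35658131 to 35662749) had 279, 409.8, 443 and 337 normalized counts in WT mice on NCD and 195, 167, 238, 315 and 163 on SSD. Mouse 4 on SSD was the one that overlapped. It fell 1.72-fold (log2 -0.79, SE 0.20, adjusted p = 0.0103), but was not called with equal totals (-0.44, adjusted p = 0.0943). Klrk1-/- mice had 275, 355, 358 and 266 and 126, 179 and 203, without overlap (log2 -0.90, SE 0.17, adjusted p = 0.00249). H2-Q6 (ENSMUSG00000073409, chromosome 17, 35643826 to 35649031) had 79.6, 112, 111 and 53.0 in WT mice on NCD and 57.1, 47.3, 63.8, 45.3 and 42.5 on SSD, a 1.67-fold fall with mice 1 and 3 on SSD inside the NCD range (adjusted p = 0.0277). It was not called with equal totals (log2 -0.40, adjusted p = 0.183), nor without NCD mouse 1, 2 or 3 or SSD mouse 2, 4 or 5. Among Klrk1-/- mice it had 65.5, 70.9, 70.9 and 50.4 and 27.0, 25.7 and 66.9, with mouse 3 on SSD inside the NCD range (log2 -0.81, adjusted p = 0.0631). It was called there without that mouse (-1.24, adjusted p = 0.00345) and with the replicate number as a block (-0.92, adjusted p = 0.044). H2-Q6 and H2-Q7 share 9.05% and 9.85% of their 100-base windows with another gene, chiefly each other and H2-Q10, so their values are not independent. H2-Q1 (ENSMUSG00000079507, chromosome 17, 35539381 to 35544075), a less studied chain, had 103, 129, 149 and 114 in WT mice on NCD and 235, 76.0, 79.0, 85.3 and 42.5 on SSD. Mouse 1 was above all NCD-fed mice and the other 4 below them (log2 -0.48, adjusted p = 0.334). Without mouse 1 the log2 fold change was -0.83 (adjusted p = 0.0109). Without NKG2D H2-Q1 fell from 91.9, 167, 208 and 116 on NCD to 59.9, 52.2 and 67.7 on SSD (log2 -1.20, SE 0.24, adjusted p = 0.00358).

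Both heavy chain genes that rose in WT mice are non-classical, and neither was called under quantile normalization (H2-M3 at log2 0.48, adjusted p = 0.112; H2-T24 at 0.44, adjusted p = 0.0845). H2-M3 (ENSMUSG00000016206, chromosome 17, 37581111 to 37585375), which presents formylated peptides such as those of bacteria and mitochondria, had 68.7, 50.3, 37.8 and 37.5 normalized counts on NCD and 109, 87.9, 75.2, 79.9 and 57.2 on SSD, with overlap through mouse 5. It rose 1.69-fold (log2 0.75, SE 0.23, adjusted p = 0.0237), a call lost without NCD mouse 3, NCD mouse 5 or SSD mouse 2 (log2 0.65 to 0.72). In the Klrk1-/- livers it had 68.9, 63.5, 53.5 and 60.3 and 63.7, 59.4 and 70.3 (log2 0.07, adjusted p = 0.781). H2-T24 (ENSMUSG00000053835, chromosome 17, 36316587 to 36331452) had 31.4, 47.3, 31.3 and 37.5 in WT mice on NCD and 67.1, 60.8, 55.2, 77.3 and 58.8 on SSD, the one gene of the 30 tested in the 2 classes that was higher in every SSD-fed than in every NCD-fed WT mouse. The rise was 1.72-fold (log2 0.79, SE 0.18, adjusted p = 0.00701), against a log2 fold change of -0.09 (adjusted p = 0.851) in Klrk1-/- mice, whose values were 41.4, 28.6, 68.4 and 41.8 and 39.6, 31.3 and 53.1. The other 4 heavy chains tested were not called in either genotype. H2-T23, the Qa-1 chain read by the CD94-NKG2A receptor of NK cells, ranged over 4285 to 4580.4 in WT mice on NCD and 3662 to 4954 on SSD. H2-T22, a chain that some γδ T cells bind, was lower on SSD in Klrk1-/- mice at an adjusted p of 0.0197 but only 1.21-fold, with 1789.7 to 2046 on NCD and 1529.8 to 1606 on SSD. H2-Q4 held 814 to 1097 and 875 to 1399 in WT mice and H2-Q2 14.1 to 26.1 and 10.1 to 24, with log2 fold changes of 0.21 and -0.34. H2-M2, too low to be tested, had 1.21 to 4.41 normalized counts in WT mice on NCD and 19.3, 5.91, 4.76, 11.5 and 1.63 on SSD.

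**Figure D3:**
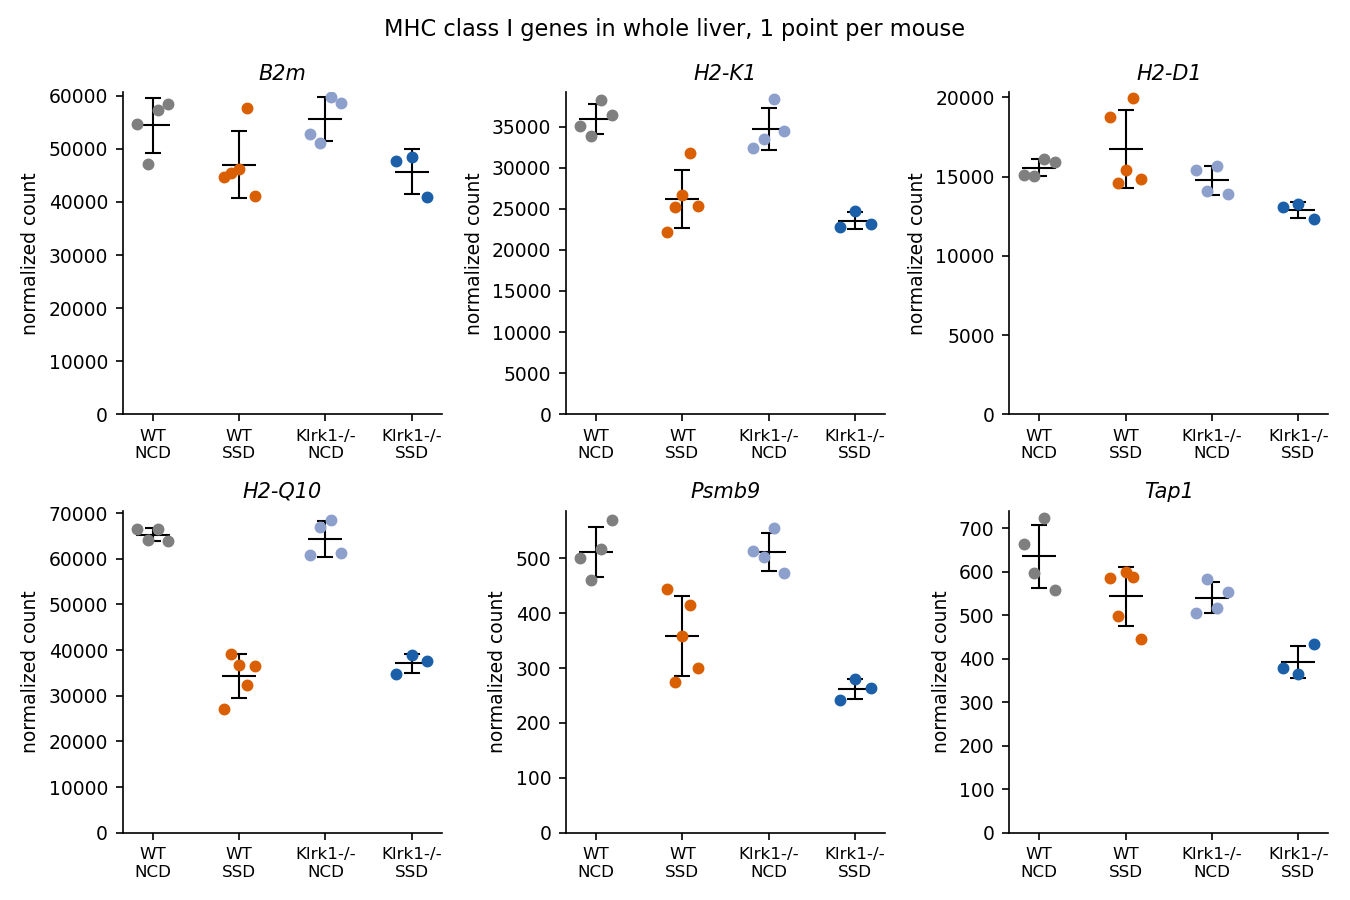
Normalized counts of 6 class I genes in each mouse (points), with the mean and SD of each group (bar and whiskers) and a linear axis from 0. H2-Q10 and H2-K1 are lower in every SSD-fed mouse than in every NCD-fed mouse of the same genotype, whereas H2-D1 overlaps in WT mice.

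Of the 8 class I partner genes, 0 were called in WT mice by limma, edgeR or DESeq2, with 1 (Psmb9) at an unadjusted p under 0.05 in limma's test where 45.4% of all genes had one. In Klrk1-/- mice 1 of the 8 fell, with 6.60% of all genes called lower. B2m (ENSMUSG00000060802, chromosome 2, 121978167 to 121983564), the light chain of all class I molecules, gave 54704, 47119.7, 57419.7 and 58479.5 normalized counts in WT mice on NCD and 44632, 45393, 46187, 57765 and 41132 on SSD, with mouse 4 on SSD inside the NCD range (log2 -0.22, 95% interval -0.51 to 0.08, adjusted p = 0.231). It was 0.13 with equal totals, which is below the median of 0.34 over all genes there. Under quantile normalization its sign turned, at 0.34, against a median of -0.01 over all genes. Without NKG2D it gave 52889, 51191, 59708 and 58555 and 47739, 48549 and 40888 (log2 -0.28, adjusted p = 0.069). B2m lies within Patl2 on the opposite strand. The immunoproteasome subunit Psmb9 (ENSMUSG00000096727, chromosome 17, 34400961 to 34406738) had the clearest change of the group. WT mice gave 500.5, 460.1, 516 and 571 on NCD and 444, 275, 358, 415 and 299.6 on SSD, all of them below the NCD-fed mice, with a 1.45-fold difference under the limit (log2 -0.53, SE 0.14, adjusted p = 0.0133). Without SSD mouse 1 it was called (log2 -0.62, adjusted p = 0.00343), as it was without SSD mouse 4 and with the replicate number as a block, which leaves that mouse out too. With equal totals it was -0.19 (adjusted p = 0.324). Klrk1-/- mice gave 512, 501, 556 and 472 on NCD and 242, 280.3 and 263 on SSD, a 1.95-fold fall (log2 -0.96, SE 0.10, adjusted p = 2.85e-05). Set against Psmb6, the constitutive subunit whose place Psmb9 takes, it stood at 0.111 to 0.147 in WT mice on NCD and 0.080 to 0.162 on SSD, which overlap. In the Klrk1-/- livers the ratio was 0.107 to 0.120 on NCD and 0.0568 to 0.0766 on SSD, with no overlap. Psmb6, Psmb5 and Psmb7 were not called in either comparison of diets.

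Tap1 (ENSMUSG00000037321, chromosome 17, 34406527 to 34416199), which is transcribed away from Psmb9 and overlaps it by 212 bases, gave 664, 596, 722 and 557 normalized counts in WT mice on NCD and 586, 498, 599.6, 587 and 446 on SSD (log2 -0.23, adjusted p = 0.144). With equal totals it was 0.12. Among Klrk1-/- mice the values 505, 584, 517 and 554 on NCD and 379, 365 and 435 on SSD did not overlap, at a 1.38-fold difference (log2 -0.46, SE 0.10, adjusted p = 0.00464) under the limit, and at -0.20 with equal totals (adjusted p = 0.153). Psmb8 (ENSMUSG00000024338, chromosome 17, 34416695 to 34420428), its neighbour and another immunoproteasome subunit, gave 737, 596, 836 and 748 and 741, 561, 658, 957 and 532 in WT mice (log2 -0.10, adjusted p = 0.658, and 0.24 with equal totals, adjusted p = 0.234). Klrk1-/- mice gave 641, 747, 757 and 664 and 476, 605 and 516 (log2 -0.40, adjusted p = 0.0142, and -0.15 with equal totals, adjusted p = 0.289). Nlrc5 (ENSMUSG00000074151, chromosome 8, 95160984 to 95253900), the class I transactivator, had 439, 508, 730.0 and 704 in WT mice on NCD and 603, 465, 684, 673 and 654 on SSD, with full overlap (log2 0.07, adjusted p = 0.779). In Klrk1-/- mice its values were 596, 724, 844 and 616 on NCD and 448, 528 and 477 on SSD, where every SSD-fed mouse was lower (1.42-fold, log2 -0.51, SE 0.12, adjusted p = 0.00989). With equal totals this was -0.25 (adjusted p = 0.105). Tap2, Tapbp and Psmb10 had log2 fold changes of 0.04, 0.19 and -0.16 in WT mice and -0.09, -0.11 and -0.14 in Klrk1-/- mice, with adjusted p-values from 0.139 to 0.784.

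**Figure D4:**
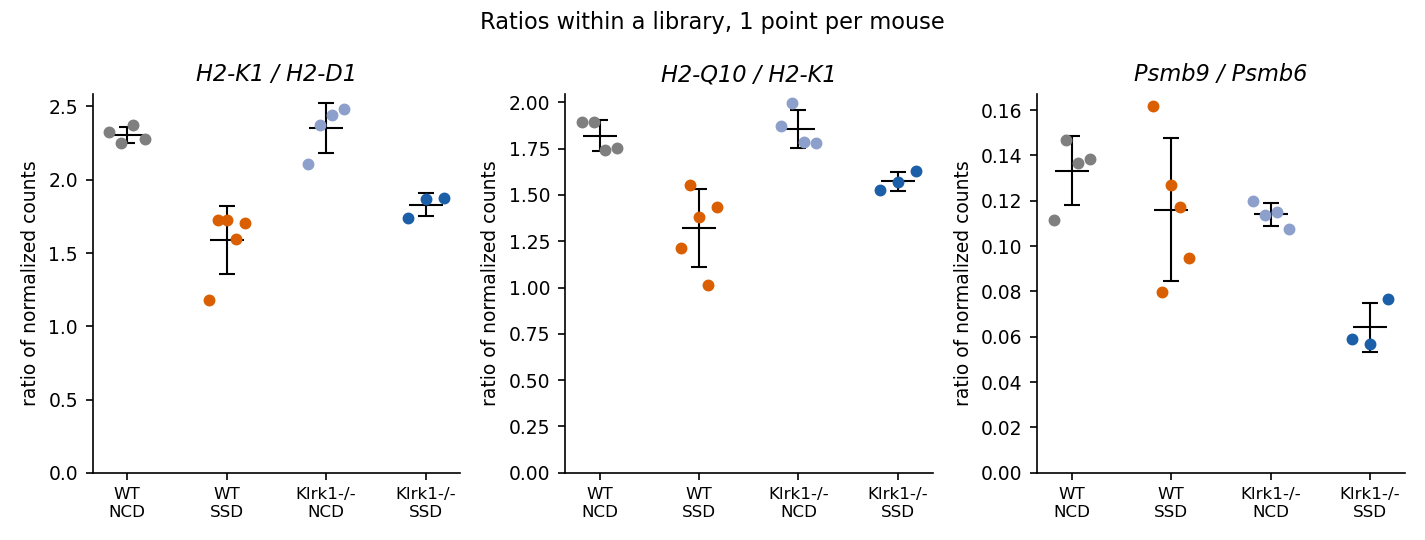
Ratios of 2 genes within the same library, which do not depend on scaling, for each mouse (points) with the mean and SD of each group (bar and whiskers). H2-K1 to H2-D1 and H2-Q10 to H2-K1 are lower in every SSD-fed mouse than in every NCD-fed mouse of the same genotype, and Psmb9 to Psmb6 is lower without overlap only in Klrk1-/- mice.

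Put side by side, class II moved up relative to class I on SSD in both genotypes. The mean log2(normalized count + 1) of the 10 class II genes minus that of the 20 class I genes was -3.33 to -2.83 in the 4 WT mice on NCD and -2.54 to -1.36 in the 5 on SSD. It was -3.37 to -2.93 in the 4 Klrk1-/- mice on NCD and -2.34 to -2.24 in the 3 on SSD. Diets separated fully in both genotypes, mouse 5 being the lowest SSD-fed WT mouse and mouse 1 the highest. In WT mice the class II mean was 6.50 to 7.07 on NCD and 6.98 to 8.54 on SSD, and the class I mean 9.83 to 9.97 and 9.52 to 9.92. In the Klrk1-/- livers the class II mean was 6.47 to 6.95 on NCD and 7.06 to 7.21 on SSD, and the class I mean 9.70 to 10.01 and 9.39 to 9.49. The spread among mice of a group was widest for class II genes in WT mice on SSD, with a median coefficient of variation of 46.2% over the 10 genes, against 14.6% for class I genes and 12.9% over all genes there. In the other 3 groups the class II median was 7.90% to 23.3%.

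**Figure D5:**
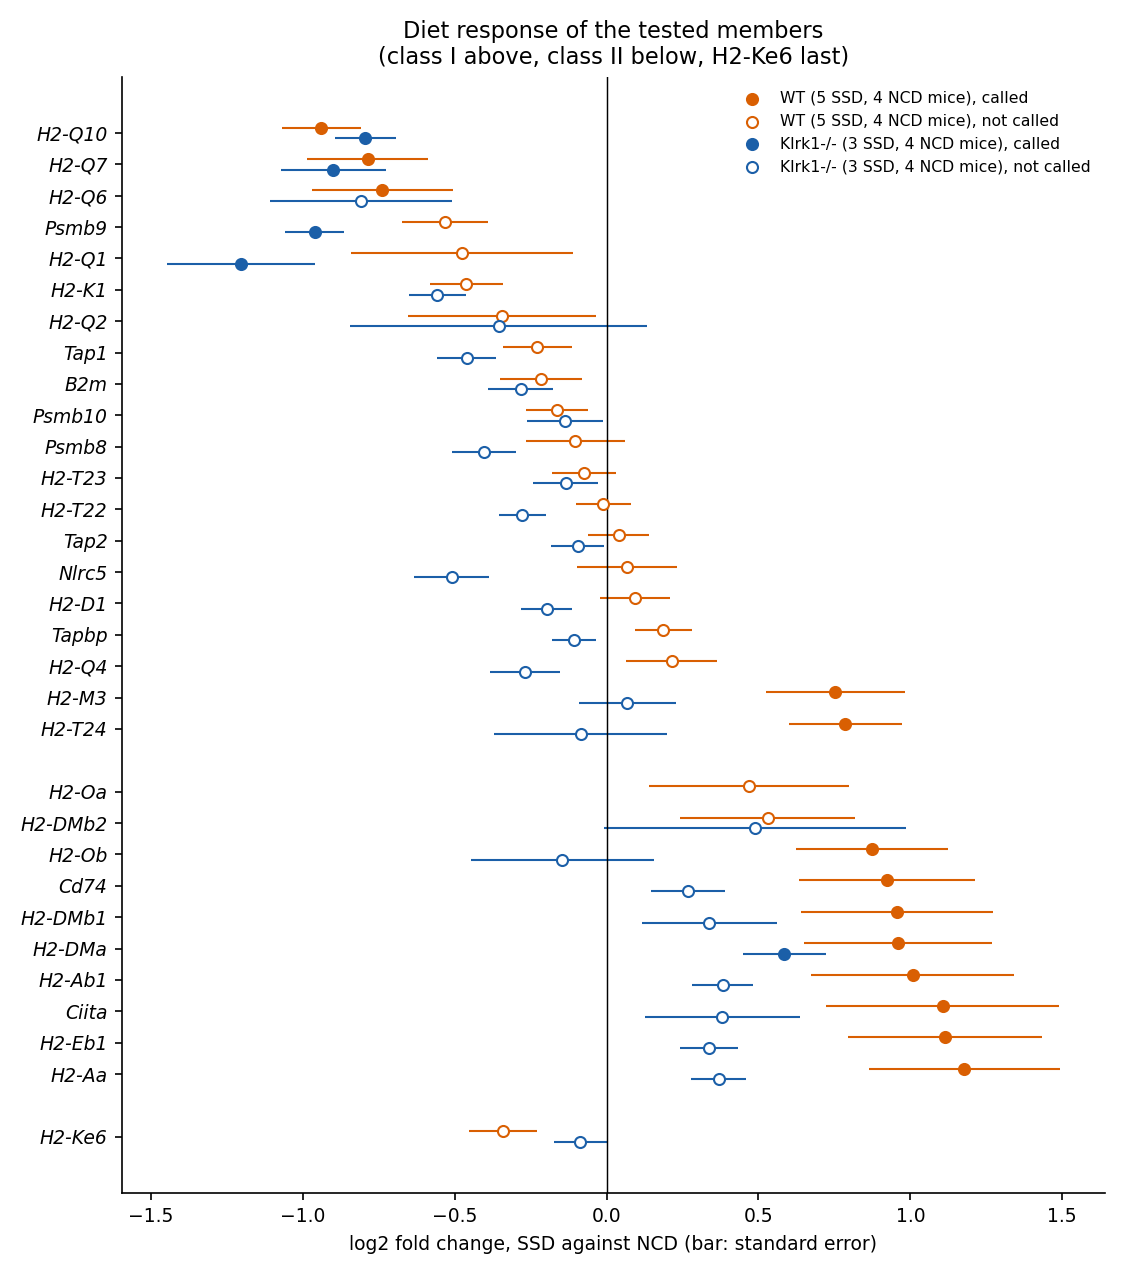
Log2 fold change of SSD against NCD for each gene tested, in WT mice (orange) and Klrk1-/- mice (blue), with the standard error as a bar and filled points for called genes. The class II genes lie right of 0 in WT mice, from 0.47 to 1.18, and closer to 0 in Klrk1-/- mice, while class I genes spread from -0.94 to 0.79 in WT mice and from -1.20 to 0.07 in Klrk1-/- mice.

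The comparison of genotypes asks whether the loss of NKG2D changes these levels. On SSD, 0 of the 31 genes tested were called, against 2.13% of 13116 genes, although 13 had an unadjusted p under 0.05 in limma's test, as did 22.9% of all genes. The share over all genes moves with single mice. Its 279 calls ranged from 45 (without Klrk1-/- mouse 1) to 447 (3.42%, without WT mouse 1) with a mouse left out. DESeq2 called 1 (H2-DMb1, log2 -1.05, adjusted p = 0.0374) and edgeR 0. All 10 class II genes had a log2 fold change below 0 in Klrk1-/- against WT mice, with a median of -0.71 (all genes -0.00). Without WT mouse 1 this median was -0.47, and H2-Oa was above 0 (0.06). H2-Aa differed by -0.81 on the log2 scale, with a 95% interval of -1.58 to -0.03 and an adjusted p of 0.205, and Cd74 by -0.82 (-1.53 to -0.10, adjusted p = 0.175). Without WT mouse 1 these were -0.54 and -0.60, and 0 members were called. The 3 Klrk1-/- mice lay inside the range of the 5 WT mice for both. Ciita was lower in all 3 Klrk1-/- mice than in the 5 WT mice, with a log2 fold change of -0.71 (adjusted p = 0.202), and of -0.47 without mouse 1. Without WT mouse 5 on SSD, the one with low class II values, H2-Ab1, H2-Eb1, Cd74 and H2-DMb1 were called lower in Klrk1-/- mice (adjusted p from 0.0313 to 0.0412). Of the 20 class I genes, 6 were lower in every Klrk1-/- mouse on SSD than in every WT mouse (H2-T24, Tap1, H2-D1, H2-T22, Tapbp and Tap2), as were 8.74% of all genes. Tap1 had the lowest adjusted p, 0.0672, at a log2 fold change of -0.46 (SE 0.12). H2-Q10 and H2-K1 differed by 0.12 (-0.18 to 0.43) and -0.15 (-0.42 to 0.13), and by 0.04 and -0.20 without WT mouse 1.

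On NCD, 0 of the 30 genes tested were called, against 5.79% of 12845 genes, with 1 at an unadjusted p under 0.05 in limma's test (Tap1, log2 -0.23) where 31% of all genes had one, and 0 called by edgeR or DESeq2. With a mouse left out, the 744 calls over all genes ranged from 425 (without Klrk1-/- mouse 3) to 972 (without WT mouse 5). The class II median was -0.08 and the class I median -0.04. The 95% interval of H2-Aa was -0.29 to 0.30 and that of H2-K1 -0.26 to 0.16.

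Whether the response to the diet itself depended on genotype was tested over all 16 mice. The interaction was called for 0 of 31 genes by limma, edgeR and DESeq2 alike, against 0.849% of 13068 genes by limma, so the larger number of class II calls in WT mice is not shown to be a difference between genotypes. With a mouse left out, limma's 111 calls over all genes ranged from 37 (without Klrk1-/- mouse 3 on SSD) to 185 (without WT mouse 5 on SSD). An unadjusted p under 0.05 was reached by 8 genes, 7 of them class I (H2-T24, H2-M3, Nlrc5, H2-Q4, Psmb9, Tapbp and H2-T22) and 1 class II (H2-Ob), while 17.3% of all genes reached it. The lowest adjusted p was 0.207, for H2-T24. For H2-Aa the response in Klrk1-/- mice was -0.81 on the log2 scale relative to that in WT mice, with a 95% interval of -1.65 to 0.03 (adjusted p = 0.305). For H2-Q10 it was 0.14 (-0.20 to 0.49). The comparisons share groups of mice, so their counts are not independent of each other.

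Other genes of the pathway were also called on SSD. In the loading of class I, the chaperone Calr and the oxidoreductase Pdia3, both part of the peptide loading complex, fell in WT mice (log2 -0.95 and -0.74, adjusted p = 0.000207 and 0.000927) and in Klrk1-/- mice (-0.84 and -0.66, adjusted p = 0.00109 and 0.0025). The other 13 of the 15 listed genes were not called in either. Of all genes, 19.3% were called in WT mice and 13.1% in Klrk1-/- mice, against 13.3% of these 15 in each. In class II processing, 4 of 10 genes rose in WT mice, against 11.9% of all genes. These were cathepsin S (Ctss), which trims the invariant chain (log2 1.05, adjusted p = 0.0125), the thiol reductase Ifi30 (0.61, adjusted p = 0.0471), the protease Lgmn (0.89, adjusted p = 0.00458) and Marchf1, the ligase that removes class II from the surface (1.58, adjusted p = 0.00203). Without WT mouse 1 on SSD, Ifi30 was under the fold limit (0.41), and Ctss, Lgmn and Marchf1 were called at 0.78, 0.69 and 1.38. Among Klrk1-/- mice Marchf1 alone was called (0.73, adjusted p = 0.0361). Of 22 tested genes that control the MHC or carry the interferon signal to it, 5 rose in WT mice (Ifngr1, Ifngr2, Irf8, Relb and Spi1) and Stat2 fell, a share of 27.3% called against 19.3% of all genes. Without mouse 1, Irf8, Relb and Spi1 were called, 13.6% against 17.7%, and Ifngr1, Ifngr2 and Stat2 were under the fold limit. Relb, an NF-κB subunit of antigen-presenting cells, had 59.1, 22.2, 57.4 and 97.1 normalized counts in WT mice on NCD and 269, 125, 148, 141 and 121 on SSD. All SSD-fed mice were above the NCD-fed ones (log2 1.54, adjusted p = 0.00669, and 1.34 without mouse 1). It had 49.4, 34.8, 31.1 and 36.9 in Klrk1-/- mice on NCD and 68.6, 72.3 and 51.4 on SSD (log2 0.74, adjusted p = 0.0216), and was lower in Klrk1-/- than in WT mice on SSD (log2 -1.26, adjusted p = 0.0306, and -1.06 without mouse 1). Also called in Klrk1-/- mice were Ifngr2, higher, and Stat2 and Rfxank, lower, which with Relb makes 19.0% of the 21 tested there, against 13.1% of all genes.

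Interferon-γ itself was hardly read. Ifng had 0 to 3.91 normalized counts in WT mice on NCD and 0 to 1.69 on SSD, and 0 to 2.49 in Klrk1-/- mice on either diet, too few to test. Irf1, which binds interferon-response letters of class I promoters, had a log2 fold change of 0.42 in Klrk1-/- against WT mice on SSD (adjusted p = 0.0929), and was not called in any comparison. Outside the complex, Mr1, which presents vitamin B metabolites to MAIT cells, fell on SSD in both genotypes (2.0-fold and 2.04-fold, adjusted p = 0.00157 and 0.000935). Procr, the protein C receptor with a class I-like fold, rose in WT mice (log2 1.44, adjusted p = 0.00714) and was not called in Klrk1-/- mice. The others of the 6 such genes tested were not called in either genotype. The share called was 33.3% in WT mice, against 19.3% of all genes, and 16.7% in Klrk1-/- mice, against 13.1%. The co-stimulatory gene Cd86 rose in WT mice (log2 1.08, adjusted p = 0.00294, and 0.92 without mouse 1), 1 of 5 such genes where 11.9% of all genes were called higher, and 0 of the 4 tested were called in Klrk1-/- mice, where 6.54% were.

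H2-Ke6, the member that does not present antigen, had 1912 to 2302 normalized counts in WT mice on NCD and 1294 to 1887 on SSD, which did not overlap but differed by only 1.27-fold (log2 -0.34, adjusted p = 0.0343). Without NKG2D it had 2247 to 2377 and 1951 to 2463. On SSD it was higher in every Klrk1-/- than in every WT mouse, at a log2 fold change of 0.38 that was not called (adjusted p = 0.127). A second gene model, Gm20427, holds 61.0% of its 100-base windows, so its reads can be counted elsewhere.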

How the data were processed

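Whole-liver RNA of 16 mice was analysed in the 4 groups given by the sample labels. The authors sequenced 100-base single reads, used FastQC for read quality, STAR for alignment to GRCm39, and FeatureCounts with GENCODE M26 for counting. The labels name an mRNA library kit and the study's methods a total RNA kit. The authors deposited a signal per gene and mouse, the normalized count, which is the count divided by 1 factor per mouse. How the factors were computed is not given in the sources used here, nor whether reads were counted by strand or how reads of several genes were treated. Another deposited column, the gene length, served for levels per kilobase. Every value was a whole multiple of the mouse's step (100% within 0.05 reads), which gave back the reads, and 0 columns of values per sample were left out. Pairs of mice within a group had a chi-square of 13.8 to 104 per gene, above counting noise, so each is 1 replicate.

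Values were tested as log2(normalized count + 1) with limma 3.58.1 (trend method, R 4.3.3) over genes with a mean of at least 10 in the mice of a model, with only the groups compared, or all 16 mice for the interaction. P-values were adjusted over all genes tested by the Benjamini-Hochberg method, and a call needed an adjusted p under 0.05 and a fold over 1.5. The fold change on this scale understates that of low genes. An exact two-sided permutation test was added for single genes, for which the smallest p is 0.0159, 0.0571, 0.0357 and 0.0286 for the diets in WT mice, the diets in Klrk1-/- mice, the genotypes on SSD and the genotypes on NCD. Up to 3 reads in a mouse counted as the floor. The genes described mouse by mouse are 12 central ones and every member called in a comparison. The members and lists were chosen with earlier results of these data known, so a list is described by its counts and median, with no test. In data simulated with 200 changed genes, each changed by 1.5 on the log2 scale up or down, 193 to 199 of these were tested. Of those tested, limma recovered 92.3% for the diets in WT mice (13088 genes), 96.4% in Klrk1-/- mice (12937), 89.4% for the genotypes on SSD (13122), 96.4% on NCD (12854) and 83.9% for the interaction (13047). It also called 12, 6, 7, 16 and 7 unchanged genes in turn.

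Alternatives were pseudocounts of 0.5 and 10, no minimum mean or 50, libraries scaled to the same total, quantile normalization, DESeq2 1.42.0 and the quasi-likelihood test of edgeR 4.0.16, both on the recovered reads, blocking by replicate number over the mice whose number is in every group compared, a joint model of the 4 groups, no fold limit or 2, and each mouse left out. Shared windows of 100 bases and overlaps of genes come from GENCODE vM39, coordinates of genes from the deposited table (GRCm39), and promoters from RefSeq (GRCm38.p6). 1 gene of the pathway lists is not reported here.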

Additional observations from a re-analysis of the deposited data

Results flagged for a closer look

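Of the 63 sets of values checked (each of the genes described mouse by mouse, in each group of 4 or 5 mice), 1 had a mouse far from the others. How often chance alone gives such a mouse is not given here. The set was H2-Q1 in WT mice on SSD, where mouse 1 had 235 normalized counts and the other 4 between 42.5 and 85.3.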

How the results depend on the processing

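The members called for SSD against NCD in WT mice (13, 10 higher and 3 lower) came to 7 under quantile normalization, 6 with the replicate number as a block (a model that also leaves out WT SSD mouse 4, without whom there were 8), 4 at a fold limit of 2, and 6 to 14 with a mouse left out. They were 6 without WT NCD mouse 1 or 2 and 8 without WT SSD mouse 3 or 4. H2-Aa stayed called under all 19 alternatives. Ciita and H2-DMb1 were called in 11 of 19, H2-Q6 in 12, H2-Ab1 in 13, Cd74 and H2-DMa in 14. H2-Q7 lost its call when libraries were scaled to the same total, H2-Q10 and H2-M3 under quantile normalization, and H2-T24 there and with the block (adjusted p = 0.0518). Of the 8 class II calls, the block kept 1. The class I median of -0.13 became 0.21 when scaled to the same total (all genes 0.34) and 0.064 under quantile normalization (all genes -0.01). In Klrk1-/- mice the 5 calls became 3 under quantile normalization, 13 with no fold limit, 1 at a fold limit of 2 and 4 to 6 with a mouse left out. Their class I median of -0.32 became -0.071 when scaled to the same total (all genes 0.25). There H2-DMa was called in 9 of 17 and H2-Q10 lost its call with the same total and under quantile normalization, and the block also leaves out NCD mouse 4. For Klrk1-/- against WT on SSD, 0 calls became 1 with DESeq2, 3 with the replicate block, which also leaves out WT SSD mice 4 and 5 (H2-Ab1, Cd74 and H2-DMb1), and 0 to 4 with a mouse left out, the 4 arising without WT SSD mouse 5. On NCD it was 0 to 1, the 1 (H2-Q6) arising without WT NCD mouse 5. The interaction gave 0 calls under every alternative. The cause of these shifts was not tested. No called gene changed direction. Of the 105 gene results, 79 kept their side of the thresholds throughout, but only 18 of the 105 were calls. With the fold limit unchanged, the calls kept under every alternative were H2-Aa in WT mice and H2-Q7, Psmb9 and H2-Q1 in Klrk1-/- mice. The rest of the 79 were results without a call. For mice with the same number, the deviations from the group means correlated at -0.13 to 0.25, with every pair over 0.1 in no comparison. Whether such mice shared more than the number is not given in the sources used here, and these correlations cannot tell. Their low levels kept H2-M2, H2-M5 and H2-Eb2 out of limma's test, and for the 10 genes without reads no difference was detectable at this depth.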

Other observations

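Among H2- genes annotated as polymorphic pseudogenes, and so outside the set, H2-Ea, the α chain of I-E, had 0 reads in all 16 mice, while its partner H2-Eb1 was read in each. C57BL/6 mice are known to lack this chain. H2-Q5 had 83.2 to 129 normalized counts in WT mice on NCD and 49.8 to 99.5 on SSD, and 80.4 to 159 and 35.7 to 67.7 in Klrk1-/- mice. H2-T10 had 54.3 to 100.4 and 70.1 to 125 in WT mice, and 50.5 to 112 and 76.3 to 88.3 in Klrk1-/- mice. H2-Bl ranged over 8.05 to 19.0 in all mice. These genes were not tested as members.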
